A study of Homo sapiens with 12 samples.

Results

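The 53 genes described here bear the names of enzyme families that remove histone acetyl or methyl groups or add methyl groups to histone lysines. They were chosen by name from the 58347 genes of the count tables: protein-coding genes on autosomes or the X chromosome with a symbol of the HDAC, SIRT, KDM or KMT series, together with EZH1, EZH2, DOT1L, EHMT1, EHMT2, SETD2, NSD1, NSD2 and NSD3. This gave 11 zinc-dependent deacetylases (HDAC), 7 sirtuins (SIRT), 18 demethylases (KDM) and 17 methyltransferases. The rule uses names and gene annotation alone, so some members act mainly on substrates other than histones, among them HDAC6, HDAC10, SIRT3 and SIRT5. RNA was sequenced from A375, an established human melanoma cell line that carries mutant BRAF, after 8 h of treatment. The 12 samples formed 4 groups of 3: DMSO, the vehicle; tretinoin, a ligand of the retinoic acid receptors; vemurafenib, an inhibitor of mutant BRAF; and the vemurafenib + tretinoin combination. The labels list 5 µM for every group, the vehicle included. The submitters state that treatments were applied in triplicate but not that the dishes were independent experiments, and all samples are of a single cell line, so the p-values below measure the spread between these samples, which may be partly technical.

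Histone tails carry acetyl groups, which accompany open and transcribed chromatin, and methyl groups, whose effect depends on the residue. Methylation of H3K4 (written by KMT2A to KMT2D), H3K36 (SETD2, NSD1 to NSD3) and H3K79 (DOT1L) accompanies active genes. Methylation of H3K9 (EHMT1, EHMT2), H3K27 (EZH1, EZH2) and H4K20 (KMT5) is linked with silencing or chromosome maintenance. The KDM enzymes erase these marks, and the HDACs erase acetylation, most often inside corepressor complexes. Retinoic acid receptors recruit such HDAC-containing corepressors when no ligand is bound, and several of these enzymes, among them EZH2, KDM5B and SIRT6, have been studied in melanoma for drug tolerance.

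Total counts per sample lay between 13510235 and 21534377, of which the 53 genes took 0.276% to 0.337%. Of 6 listed melanoma and neural crest markers, 5 reached a mean of 1 CPM (counts scaled to library size) with DMSO. The 6 summed to 1570 to 1640 CPM. Of 7 markers of the pigmented melanocyte lineage, 2 reached a mean of 1 CPM, and SOX10 had no count in any sample. Strand was ignored in the counting and the overlap of SOX10 with other genes was not examined, so this does not show its absence. Known target genes of both drugs moved: all 11 genes listed as output of the ERK pathway fell with vemurafenib (median log2 fold change -3.27), and 4 of the 8 tested retinoid response genes rose with tretinoin. Of 13 proliferation markers, 10 fell with vemurafenib (median -0.46). The summed level of 4 fibroblast markers was 14.6 to 16.9 CPM with DMSO and 44.5 to 47.4 CPM with vemurafenib, and that of 4 epithelial markers 12.6 to 16.8 and 29.4 to 32.3 CPM. The 7 melanocyte markers summed to 17.8 to 21.9 CPM with DMSO and 35.5 to 36.6 CPM with vemurafenib. For 3 endothelial markers the sum was 5.28 to 6.55 CPM with DMSO, 12.7 to 17.2 CPM with tretinoin and 2.4 to 3.17 CPM with vemurafenib. For 4 leukocyte markers it was 1.03 to 2.9, 2.52 to 4.77 and 3.17 to 3.91 CPM in the same order. With tretinoin the fibroblast, epithelial and melanocyte sums were 15.4 to 16.7, 10.0 to 15.2 and 15.4 to 20.2 CPM. In bulk RNA, fewer cells of a kind and less RNA per cell cannot be told apart, and the part of these shifts in the results below was not tested.

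Counts were compared by edgeR's quasi-likelihood test, with trimmed mean of M values (TMM) scaling and Benjamini-Hochberg adjustment over the 16740 genes that passed the count filter. Of the 53 genes, 51 were tested. KDM4E had a count of 0 in all 12 samples, which allows up to 0.139 to 0.222 CPM depending on the library, and KDM4F had at most 1 count in a sample. Both are close relatives of KDM4D that lie beside it on chromosome 11.

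In vehicle-treated cells the genes spanned a wide range of levels, compared here as CPM per kilobase of annotated exon. HDAC1, the catalytic subunit of several corepressors, had the highest level at 57.6. KDM1A (LSD1), which erases H3K4 methylation and shares the CoREST complex with HDAC1, came next at 47.0. KMT5A, the H4K20 monomethyltransferase needed for mitotic chromosome condensation, stood at 23.3. These were followed by KDM5C, which erases H3K4 trimethylation (21.8), EZH2, the catalytic subunit of polycomb repressive complex 2 (19.2), and SIRT6, a nuclear deacetylase of H3K9 and H3K56 (17.4). At the low end were HDAC9 (0.472) and HDAC10 (0.101). Within the methyltransferase pair for H3K27, EZH2 stood well above EZH1 (2.13). The order in the middle of the range depends on which transcripts are counted as the gene's length. Per kilobase of the principal coding transcript, HDAC1 and KDM1A stayed in the first and second place, HDAC3 followed them and HDAC10 was again last.

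**Figure D1:**
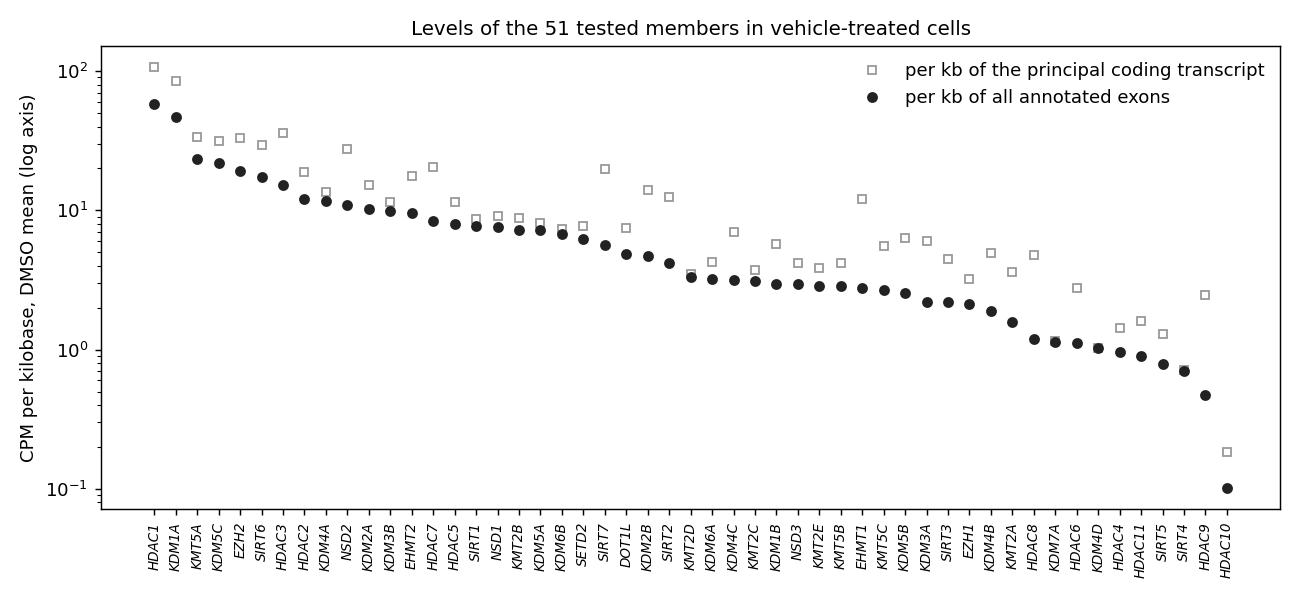
Mean level of the 51 tested genes in the 3 DMSO samples, in CPM per kilobase on a log axis, ordered by level per kilobase of all annotated exons (filled circles), with the level per kilobase of the principal coding transcript as open squares. HDAC1 and KDM1A lie at the top on both scales and HDAC10 at the bottom on both.

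Vemurafenib changed 30 of the 51 tested genes. The 20 that rose were led by the class IV deacetylase HDAC11, the cytoplasmic deacetylase HDAC6, the H4K20 methyltransferase KMT5C and the class IIa deacetylase HDAC5. The 10 that fell were led by the demethylases KDM7A and KDM2B and the deacetylases HDAC4 and HDAC2. All genes gave a background of 26.4% higher and 26.3% lower (52.6% in either direction), so the share of the enzymes that rose was above it and the share that fell below it. Their median log2 fold change was 0.08, against 0.02 for all genes tested. Changes were moderate: 2 of the 30 reached 1 on the log2 scale, in either direction, and 12 were under 0.5. In all 30 the 3 vemurafenib samples lay apart from the 3 DMSO samples, which a call on the same samples makes likely. Of all 51 tested, 33 lay apart, and the share over all genes was not computed. Of the 21 genes that did not pass, 19 had a 95% interval within 0.5 of no change on the log2 scale, and the exceptions were the low genes HDAC10 and SIRT4.

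The enzymes are mostly well expressed, and the shares of genes that rose and fell with vemurafenib differed with level. With all tested genes divided into 4 equal groups by mean CPM, 13.5% of the highest group rose and 47.4% fell. Of the 23 enzymes in that group, 7 rose and 5 fell. In the next group 25.8% of all genes rose and 32.4% fell, and of its 18 enzymes 9 rose and 3 fell. Scaling also matters for the direction. With library totals in place of the TMM factors, an alternative chosen after seeing the data, the median of all genes moved from 0.02 to 0.21 and the share of calls that were higher from 50.1% to 71.4%. On that scale 26 of the enzymes rose and 7 fell, beside 6575 and 2628 of the 16740 genes tested.

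**Figure D2:**
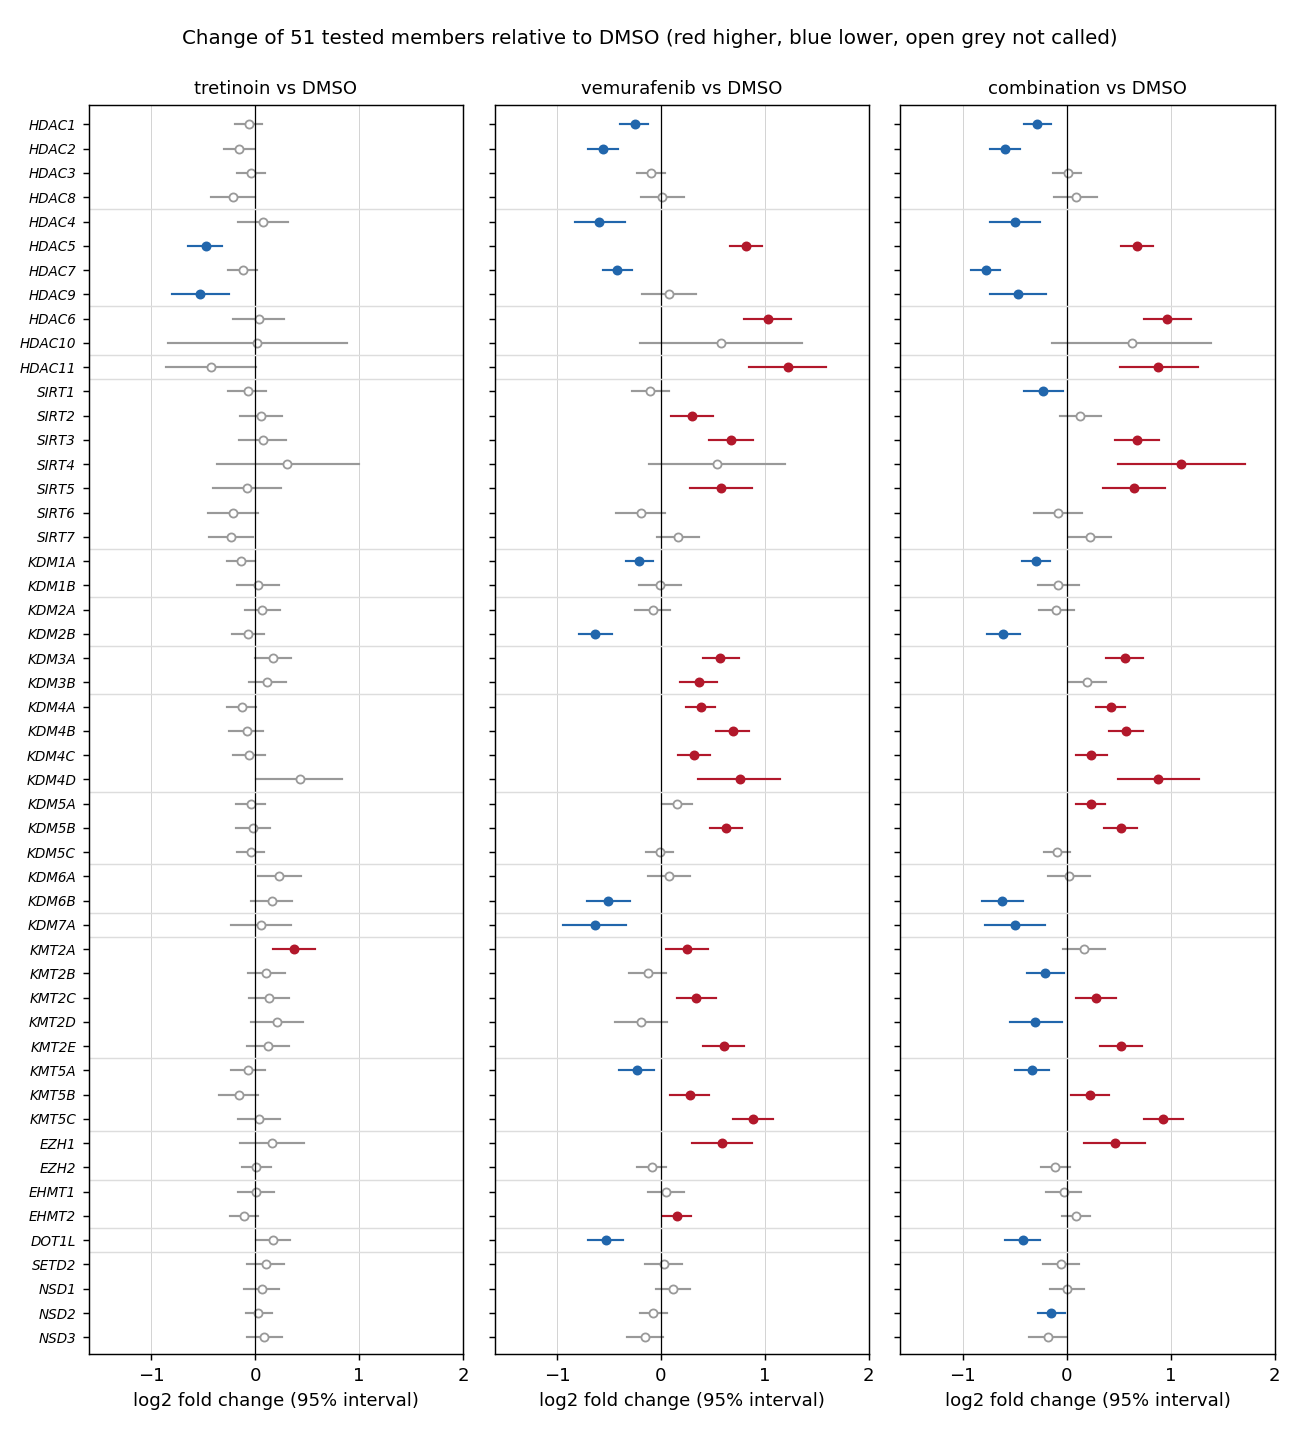
Log2 fold change of the 51 tested genes against DMSO with its 95% interval, one panel per treatment and grey lines between gene families. Filled red points were called higher and filled blue points lower, and open grey points did not pass (edgeR adjusted p under 0.05). Tretinoin gave 3 calls, vemurafenib 30 and the combination 33, with HDAC11, HDAC6, KMT5C and HDAC5 furthest to the right under vemurafenib.

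To show the sequence at the start of the genes that moved most, promoter windows of 300 bases (250 before and 50 after the transcription start) were taken from RefSeq on GRCh38.p14. Of the 53 genes, 48 had at least 1 window, 75 in all, and HDAC5, DOT1L, SIRT7, KDM4E and NSD3 had none. The windows of these enzymes had a median GC content of 68.7%, against 58.7% for all 34961 windows. Motifs were searched on both strands, and matches that overlap were kept: an ETS core (CCGGAAG), bound by the ETS factors that ERK signalling activates, an E-box (CACGTG), an E2F core (TTCCCGC or TTGGCGC), an AP-1 site (TGACTCA), a CRE (TGACGTC) and a retinoid receptor half-site (AGGTCA). The ETS core lay in 12% of the enzymes' windows and 10.3% of all windows, the E-box in 10.7% and 7.3%, the E2F core in 16% and 9.3%, the AP-1 site in 4% and 4.9%, the CRE in 2.7% and 3.4%, and the half-site in 5.3% and 13.8%. A match is a description of the letters and not evidence of binding. The first lines below are the windows of HDAC11 (plus strand, chr3:13480056-13480355) and KMT5C (plus strand, chr19:55339626-55339925), the largest risers that have a single window, and the third is that of KDM7A (minus strand, chr7:140176934-140177233), the gene with the largest fall. Capitals mark motif matches, and only the KDM7A window holds one, an ETS core.
HDAC11: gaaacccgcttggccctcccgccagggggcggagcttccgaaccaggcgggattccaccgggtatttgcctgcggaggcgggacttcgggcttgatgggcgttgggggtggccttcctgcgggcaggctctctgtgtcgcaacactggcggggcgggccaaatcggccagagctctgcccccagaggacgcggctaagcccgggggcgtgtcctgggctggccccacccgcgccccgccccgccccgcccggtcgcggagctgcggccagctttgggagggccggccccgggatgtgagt
KMT5C: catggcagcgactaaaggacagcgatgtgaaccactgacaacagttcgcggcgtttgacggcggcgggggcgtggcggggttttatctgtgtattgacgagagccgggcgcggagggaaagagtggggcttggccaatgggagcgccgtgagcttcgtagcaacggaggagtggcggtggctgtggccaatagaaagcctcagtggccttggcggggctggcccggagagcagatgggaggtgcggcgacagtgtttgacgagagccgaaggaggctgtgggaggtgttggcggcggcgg
KDM7A: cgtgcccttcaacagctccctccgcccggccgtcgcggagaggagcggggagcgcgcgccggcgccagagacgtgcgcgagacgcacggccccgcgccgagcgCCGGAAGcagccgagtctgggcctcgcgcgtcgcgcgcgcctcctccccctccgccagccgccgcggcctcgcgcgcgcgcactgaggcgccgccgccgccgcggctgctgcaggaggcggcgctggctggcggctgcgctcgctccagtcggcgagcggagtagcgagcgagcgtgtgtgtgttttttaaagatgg

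Of the 11 zinc-dependent deacetylases, 3 rose with vemurafenib and 4 fell, beside 26.4% higher and 26.3% lower among all genes. The counts by class and family here and below are small and are not read as particular to a class or family. Changes are given here and below as log2 fold changes with their standard error (SE), against DMSO unless stated otherwise, and gene positions are on GRCh38. In class I, the nuclear catalytic subunits, 2 of 4 fell. HDAC2 had 176, 198 and 186 CPM with DMSO, 153, 173 and 176 with tretinoin, 125, 127 and 129.6 with vemurafenib and 123, 124 and 124 with the combination. Every sample with vemurafenib lay below every sample without it, and the log2 fold change with vemurafenib was -0.55 ± 0.068 (SE, edgeR adjusted p = 2.6e-06). HDAC1 had 229, 227 and 228 CPM with DMSO, 202, 225 and 229.9 with tretinoin, 193, 193 and 188 with vemurafenib and 187, 189 and 186 with the combination. Here too the vemurafenib samples lay below the DMSO samples, but the fall was small, -0.25 ± 0.063 (SE, edgeR adjusted p = 0.0026), and it was lost when libraries were scaled by totals alone (-0.06, adjusted p = 0.41). HDAC3, the enzyme of the NCoR and SMRT corepressors, and HDAC8 gave -0.10 and 0.01, with 95% intervals of -0.23 to 0.04 and -0.19 to 0.22, and did not pass.

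Class IIa deacetylases shuttle between nucleus and cytoplasm and act as scaffolds for corepressors. HDAC5 (chr17:44076746-44123702) had 56.3, 67.8 and 59.0 CPM with DMSO, 41.9, 43.5 and 46.0 with tretinoin, 108, 103 and 111 with vemurafenib and 94.7, 99.0 and 98.2 with the combination. Its lowest level was in tretinoin and its highest in vemurafenib, with no overlap between those groups and DMSO, and it rose with vemurafenib by 0.82 ± 0.073 (SE, edgeR adjusted p = 5.7e-08). HDAC4 had 11.5, 13.4 and 14.0 CPM with DMSO, 14.1, 13.2 and 13.9 with tretinoin, 7.48, 8.66 and 9.79 with vemurafenib and 9.08, 9.76 and 8.69 with the combination. All vemurafenib samples lay below all DMSO samples, a change of -0.59 ± 0.116 (SE, edgeR adjusted p = 0.00036). HDAC7 (chr12:47782722-47833132) had 84.0, 82.1 and 84.5 CPM with DMSO, 81.5, 75.2 and 74.0 with tretinoin, 59.3, 62.5 and 65.7 with vemurafenib and 50.1, 48.3 and 47.6 with the combination. The level stepped down from DMSO to vemurafenib, -0.42 ± 0.065 (SE, edgeR adjusted p = 3.7e-05), and was lowest in the combination. HDAC9 did not pass with vemurafenib (0.08) and is described with tretinoin. HDAC5 thus moved against HDAC4 and HDAC7 within the same class, and 11.2% of HDAC7's exon bases lie under exons of other genes, which matters because strand was ignored in the counting.

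Both remaining HDAC classes held a strong riser. HDAC11 (chr3:13479724-13506424), the only class IV enzyme, which removes long fatty acyl groups as well as acetyl groups, had 5.54, 5.27 and 3.48 CPM with DMSO, 2.64, 4.71 and 3.07 with tretinoin, 11.6, 10.5 and 10.8 with vemurafenib and 9.52, 8.36 and 8.24 with the combination. The vemurafenib and combination samples lay above all others, and the rise with vemurafenib was 2.33-fold, a log2 fold change of 1.22 ± 0.176 (SE, edgeR adjusted p = 1.6e-05). HDAC6 (chrX:48801377-48824982), which deacetylates tubulin and cortactin in the cytoplasm, had 11.7, 9.66 and 13.8 CPM with DMSO, 13.0, 11.9 and 11.6 with tretinoin, 24.0, 25.4 and 22.6 with vemurafenib and 22.3, 23.4 and 23.4 with the combination. It too separated the 6 samples with vemurafenib from the 6 without, and the rise was 2.04-fold, 1.03 ± 0.108 (SE, edgeR adjusted p = 4.3e-07). HDAC10, a polyamine deacetylase, had 0.387, 0.473 and 0.633 CPM with DMSO and 0.883, 0.674 and 0.721 CPM with vemurafenib and did not pass (0.58, 95% interval -0.20 to 1.36), and 55.8% of its exon bases overlap MAPK12.

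**Figure D3:**
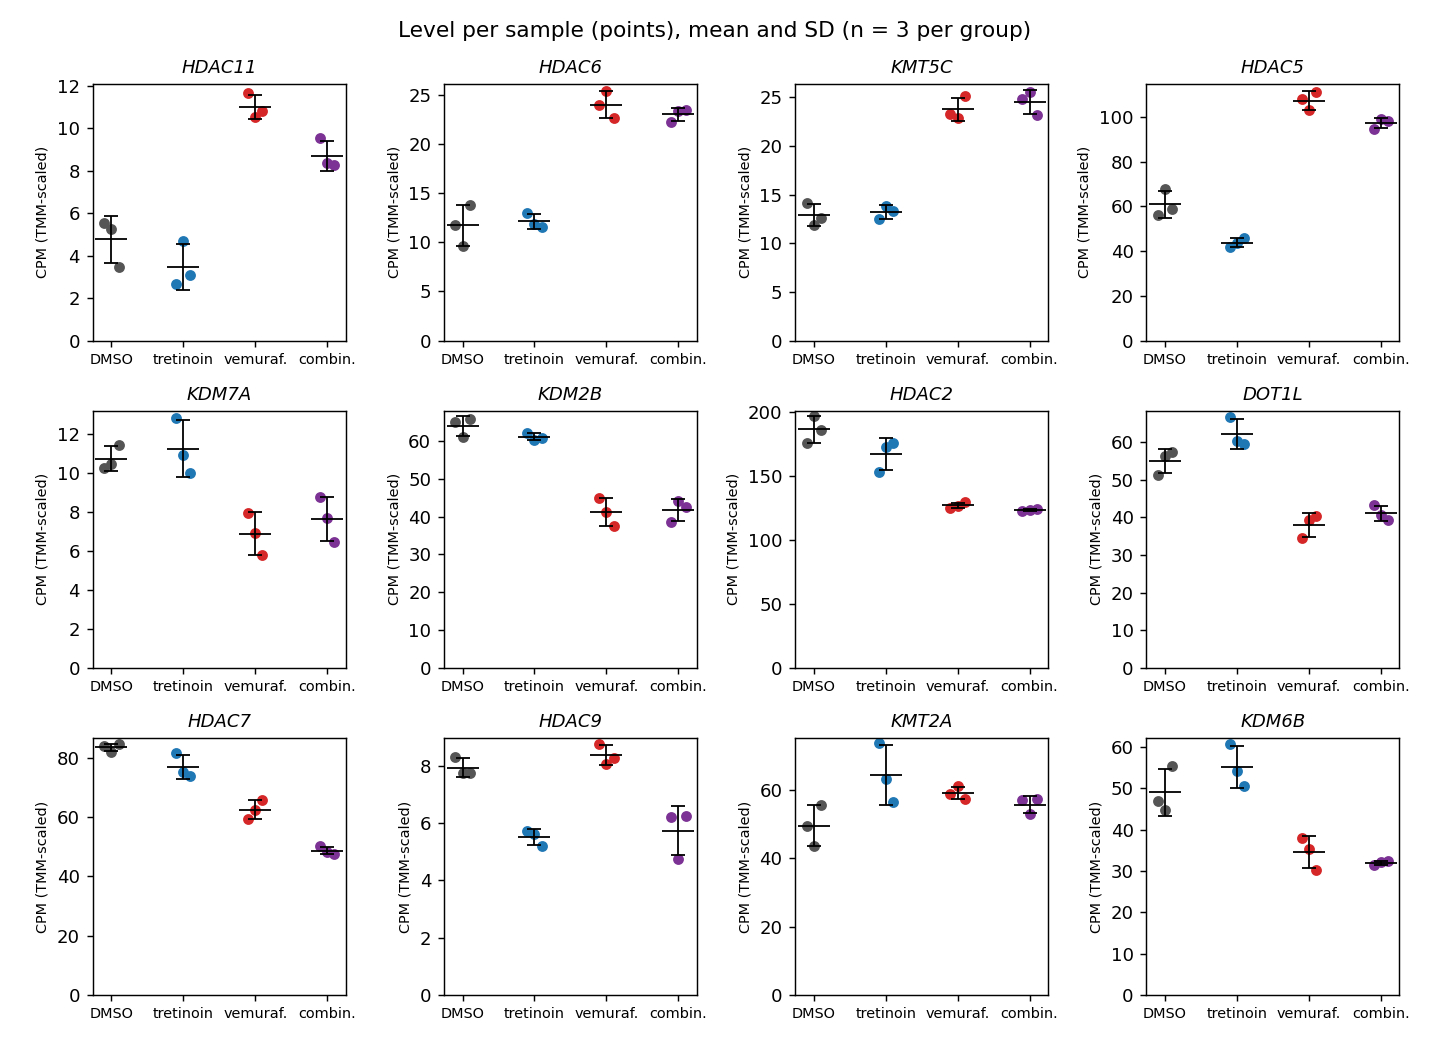
Level of 12 of the enzymes in each sample (points, TMM-scaled CPM, axes from 0), with the group mean and SD of 3 samples as bars. The upper rows show genes that moved with vemurafenib, whether or not tretinoin was present. The lowest row shows HDAC7, lowest in the combination, HDAC9, low in both tretinoin groups, KMT2A, with its highest mean in tretinoin, and KDM6B, low in both vemurafenib groups.

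Sirtuins are deacylases that consume NAD+. With vemurafenib 3 of the 7 rose and the other 4 did not pass, beside 26.4% higher and 26.3% lower among all genes. SIRT3, the main mitochondrial deacetylase, had 10.8, 12.9 and 10.4 CPM with DMSO, 11.2, 12.3 and 12.2 with tretinoin, 19.2, 16.8 and 18.1 with vemurafenib and 17.6, 19.3 and 17.4 with the combination. The 6 samples with vemurafenib lay above the 6 without, and the log2 fold change was 0.67 ± 0.103 (SE, edgeR adjusted p = 2.9e-05). SIRT5, the mitochondrial desuccinylase, rose by 0.57 and SIRT2, the cytoplasmic tubulin deacetylase, by 0.30 (edgeR adjusted p = 0.0026 and 0.013), and the SIRT2 call was lost without DMSO replicate 3. The nuclear sirtuin with the highest level, SIRT6, had 47.9, 52.0 and 45.9 CPM with DMSO, 34.3, 44.5 and 46.6 with tretinoin, 40.1, 38.6 and 49.0 with vemurafenib and 50.7, 41.8 and 44.8 with the combination. Its groups overlapped, and its log2 fold change with vemurafenib, -0.19 (95% interval -0.43 to 0.04), did not pass. The other nuclear or nucleolar sirtuins SIRT1 and SIRT7 gave -0.10 and 0.16 and SIRT4, a mitochondrial sirtuin at about 1 CPM, 0.54, none of which passed. Of SIRT5's exon bases, 16.1% overlap another gene.

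Among the demethylases, 7 of 16 rose with vemurafenib and 4 fell, beside 26.4% higher and 26.3% lower among all genes. The risers came from the KDM3 family (H3K9 mono- and dimethyl), the KDM4 family (H3K9 and H3K36 trimethyl) and KDM5B (H3K4 trimethyl). All 4 tested KDM4 genes rose, a family too small for its share to be set against those of all genes. KDM4D had 2.90, 3.85 and 2.38 CPM with DMSO, 3.30, 4.18 and 4.55 with tretinoin, 5.61, 5.15 and 4.45 with vemurafenib and 4.84, 5.85 and 5.89 with the combination. The vemurafenib and combination samples lay above the DMSO samples, though the lowest vemurafenib sample was below the highest tretinoin sample, and the log2 fold change with vemurafenib was 0.76 ± 0.188 (SE, edgeR adjusted p = 0.0027). KDM4B had 28.7, 27.2 and 27.1 CPM with DMSO, 26.2, 26.9 and 25.4 with tretinoin, 44.8, 44.8 and 44.6 with vemurafenib and 41.2, 37.7 and 44.4 with the combination. Its replicates were close and the samples with vemurafenib lay clear of the rest, with a change of 0.69 ± 0.075 (SE, edgeR adjusted p = 6e-07). KDM4A, the member of the family with the highest level per kilobase, had 58.8, 60.2 and 63.3 CPM with DMSO, 57.3, 54.0 and 55.4 with tretinoin, 80.0, 83.4 and 74.3 with vemurafenib and 84.8, 78.2 and 81.5 with the combination. It rose by 0.38 ± 0.067 (SE, edgeR adjusted p = 0.00012), and 48.5% of its exon bases overlap KDM4A-AS1 and AL451062.3. KDM4C rose by 0.32 (edgeR adjusted p = 0.0013).

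KDM5B (JARID1B), known in melanoma as a marker of slow-cycling cells, had 65.7, 63.8 and 66.5 CPM with DMSO, 72.6, 62.4 and 58.9 with tretinoin, 107, 98.7 and 97.2 with vemurafenib and 91.5, 92.5 and 97.7 with the combination. The samples with vemurafenib lay well above the samples without it, a change of 0.62 ± 0.076 (SE, edgeR adjusted p = 2.2e-06). Its relative KDM5C had 183, 191 and 196 CPM with DMSO, 191, 187 and 176 with tretinoin, 188, 188 and 190.2 with vemurafenib and 176, 182 and 177 with the combination. The DMSO and vemurafenib samples overlapped while the combination samples lay below both, and the log2 fold change with vemurafenib was -0.01 (95% interval -0.14 to 0.12). KDM5A gave 0.16 (edgeR adjusted p = 0.059). In the KDM3 family, KDM3B had 75.1, 73.0 and 87.0 CPM with DMSO, 96.3, 83.2 and 76.2 with tretinoin, 105, 100.1 and 97.0 with vemurafenib and 89.4, 89.4 and 91.3 with the combination. Its vemurafenib samples lay above its DMSO samples (0.36 ± 0.084 SE, edgeR adjusted p = 0.0016), and KDM3A, a hypoxia-responsive H3K9 demethylase, rose by 0.57 ± 0.083 (SE, edgeR adjusted p = 1.7e-05).

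The demethylases that fell were KDM7A, KDM2B, KDM6B and KDM1A. KDM7A (chr7:140084746-140177035), which erases H3K9 and H3K27 dimethylation, had 10.2, 10.5 and 11.4 CPM with DMSO, 12.8, 10.9 and 9.97 with tretinoin, 7.95, 6.93 and 5.77 with vemurafenib and 8.75, 7.67 and 6.47 with the combination. All 6 samples with vemurafenib lay below all 6 without, and the log2 fold change was -0.64 ± 0.142 (SE, edgeR adjusted p = 0.0011). KDM2B, an H3K36 demethylase that recruits a polycomb complex to CpG islands, had 65.0, 60.9 and 65.8 CPM with DMSO, 62.2, 60.4 and 60.9 with tretinoin, 44.8, 41.2 and 37.5 with vemurafenib and 38.5, 44.0 and 42.6 with the combination. The separation was again complete, with a change of -0.63 ± 0.076 (SE, edgeR adjusted p = 2.1e-06). Its partner in the family, KDM2A, had 94.3, 114 and 110.1 CPM with DMSO, 122, 111 and 102 with tretinoin, 94.6, 104 and 102 with vemurafenib and 97.9, 99.3 and 100.1 with the combination. The DMSO and vemurafenib samples overlapped, and the change of -0.08 (95% interval -0.25 to 0.09) did not pass.

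KDM6B (JMJD3), a demethylase of H3K27 trimethylation induced by many stimuli, had 46.9, 44.8 and 55.4 CPM with DMSO, 60.7, 54.1 and 50.6 with tretinoin, 37.9, 35.3 and 30.3 with vemurafenib and 31.4, 32.1 and 32.4 with the combination. It was lowest in the 6 samples with vemurafenib and changed by -0.51 ± 0.097 (SE, edgeR adjusted p = 0.00028), while the X-linked relative KDM6A (UTX) gave 0.08 (95% interval -0.12 to 0.28). KDM1A had 243, 262 and 262 CPM with DMSO, 221, 242 and 237 with tretinoin, 214, 228 and 222 with vemurafenib and 212, 208 and 206 with the combination. The vemurafenib samples lay below the DMSO samples by a small step, -0.21 ± 0.064 (SE, edgeR adjusted p = 0.01), which was lost with library totals alone (-0.015, adjusted p = 0.85). KDM1B, the other flavin-dependent enzyme, gave -0.01.

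Of the 17 methyltransferases, 7 rose with vemurafenib and 2 fell, beside 26.4% higher and 26.3% lower among all genes. KMT5C (SUV420H2, chr19:55339853-55348120), which places trimethylation on H4K20 in heterochromatin, had 14.1, 11.9 and 12.6 CPM with DMSO, 12.5, 13.8 and 13.3 with tretinoin, 23.3, 22.9 and 25.1 with vemurafenib and 24.8, 25.6 and 23.2 with the combination. The 6 samples with vemurafenib lay far above the 6 without, a 1.84-fold rise with vemurafenib (0.88 ± 0.091 SE, edgeR adjusted p = 3.4e-07). KMT5B, which places mainly the dimethyl form, rose by 0.28 (edgeR adjusted p = 0.013), a call lost without DMSO replicate 3 or vemurafenib replicate 1. KMT5A, which places the first methyl group, moved the other way with 109, 102 and 109 CPM with DMSO, 91.7, 110.4 and 102 with tretinoin, 89.2, 88.3 and 94.4 with vemurafenib and 92.4, 78.2 and 83.5 with the combination. Its vemurafenib samples lay below its DMSO samples, -0.23 ± 0.078 (SE, edgeR adjusted p = 0.018), a call lost with library totals alone (-0.04, adjusted p = 0.67) and without any of DMSO replicates 1 and 3 and vemurafenib replicates 1 and 2. KMT5A shares a stretch of 928 exon bases with the pseudogene SETD8P1, so part of its count is uncertain.

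The other fall among the writers was DOT1L, the sole H3K79 methyltransferase, with 51.4, 56.3 and 57.5 CPM with DMSO, 66.8, 60.4 and 59.5 with tretinoin, 34.5, 39.4 and 40.5 with vemurafenib and 43.2, 40.6 and 39.3 with the combination. The samples with vemurafenib lay below the rest, and the log2 fold change was -0.53 ± 0.08 (SE, edgeR adjusted p = 2.5e-05). Of DOT1L's exon bases, 11.5% overlap AC004490.1 and PLEKHJ1. Of the H3K27 enzymes, EZH1 rose by 0.59 ± 0.139 (SE, edgeR adjusted p = 0.0017), while EZH2 had 84.0, 88.4 and 87.9 CPM with DMSO, 80.3, 87.2 and 93.5 with tretinoin, 81.3, 83.8 and 79.3 with vemurafenib and 82.3, 78.8 and 79.4 with the combination. EZH2 was a little lower in every vemurafenib sample than in every DMSO sample, but its change of -0.09 (95% interval -0.23 to 0.05) did not pass. EHMT2 (G9a), the H3K9 dimethyltransferase, had 73.9, 70.8 and 65.9 CPM with DMSO, 64.4, 65.2 and 66.4 with tretinoin, 78.1, 76.7 and 79.7 with vemurafenib and 75.2, 72.8 and 75.5 with the combination. It rose slightly, 0.16 ± 0.063 (SE, edgeR adjusted p = 0.045), a call that held in 1 of 6 fits that left out a sample (lost without DMSO replicates 2 and 3 and each vemurafenib sample), and its partner EHMT1 gave 0.05.

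Within the KMT2 family, KMT2E, KMT2C and KMT2A rose by 0.60, 0.34 and 0.25 with vemurafenib (edgeR adjusted p = 4.1e-05, 0.0045 and 0.036). The KMT2A call held in 1 of 6 fits that left out a sample, being lost without DMSO replicates 1 and 2 and each vemurafenib sample. KMT2B, with the highest level of the family per kilobase, had 75.9, 67.2 and 80.8 CPM with DMSO, 91.3, 79.2 and 71.9 with tretinoin, 70.2, 66.9 and 67.8 with vemurafenib and 64.1, 66.2 and 63.9 with the combination. The DMSO and vemurafenib samples overlapped while the combination samples lay below all others, and its change with vemurafenib was -0.13 (95% interval -0.31 to 0.05). KMT2D gave -0.19. None of the H3K36 enzymes passed with vemurafenib: SETD2 gave 0.03, NSD1 0.12, NSD3 -0.16 and NSD2 -0.07. NSD2, the most abundant of them per kilobase, had 219, 207 and 226 CPM with DMSO, 226, 224 and 217 with tretinoin, 206, 212 and 202 with vemurafenib and 196, 196 and 195 with the combination. Its combination samples were the lowest, and the fall in the combination, -0.15 ± 0.06 (SE, edgeR adjusted p = 0.043), was lost without DMSO replicates 1 and 3 and without each combination sample, and turned to 0.011 (adjusted p = 0.9) with library totals alone.

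Tretinoin alone changed 3 of the 51 enzymes, with 1 higher and 2 lower, beside 3.48% higher, 2.20% lower and 5.68% in either direction among all genes. At an unadjusted p under 0.05 there were 9. That threshold is looser than that of these shares and has no share of all genes beside it, so the count is not interpreted. Tretinoin replicate 1 stood apart from replicates 2 and 3, with a chi-square per degree of freedom over genes of 19.1 and 21.8 against 2.56 between those. Without it the log2 fold changes were -0.447 for HDAC5, -0.552 for HDAC9 and 0.265 for KMT2A (edgeR adjusted p = 5e-04, 0.029 and 0.073), so that KMT2A no longer passed. HDAC5 fell, with a log2 fold change of -0.48 ± 0.076 (SE, edgeR adjusted p = 0.00087), from 56.3, 67.8 and 59.0 CPM to 41.9, 43.5 and 46.0 CPM, and kept its call in every fit that left out a sample. HDAC9 (chr7:18086949-19002416) had 8.31, 7.77 and 7.76 CPM with DMSO, 5.72, 5.64 and 5.20 with tretinoin, 8.78, 8.08 and 8.29 with vemurafenib and 6.22, 4.74 and 6.25 with the combination. It was low in the 6 samples with tretinoin and high in the 6 without, with no overlap, and its log2 fold change with tretinoin alone was -0.53 ± 0.132 (SE, edgeR adjusted p = 0.025). That call held in 1 of 6 fits with a sample left out, being lost without any of the DMSO samples and without tretinoin replicates 2 and 3, while the log2 fold change stayed between -0.55 and -0.48. KMT2A (chr11:118436464-118526832), the H3K4 methyltransferase rearranged in leukaemia, had 49.5, 43.5 and 55.6 CPM with DMSO, 73.7, 63.2 and 56.4 with tretinoin, 58.8, 61.0 and 57.4 with vemurafenib and 56.9, 52.8 and 57.3 with the combination. The tretinoin samples lay above the DMSO samples by a narrow margin, 0.37 ± 0.096 (SE, edgeR adjusted p = 0.03), and the call was lost without DMSO replicates 1 and 2 and tretinoin replicates 1 and 2. Exons of other genes cover 18.9% of the exon bases of KMT2A.

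HDAC9 has RefSeq windows at several starts. The one below (chr7:18495460-18495759, plus strand) belongs to an internal start and is shown because it holds the retinoid half-site AGGTCA on the minus strand, which reads TGACCT here and is in capitals. An overlapping HDAC9 window shares this match, and the remaining HDAC9 windows do not hold it. HDAC4 and KDM6A were the other enzymes with a window that holds the half-site. Neither passed with tretinoin (log2 fold changes of 0.079 and 0.235). As given above, the half-site lay in 5.3% of the enzymes' windows and 13.8% of all windows. The counts sum all transcripts of a gene, so they do not say which start was used.
HDAC9: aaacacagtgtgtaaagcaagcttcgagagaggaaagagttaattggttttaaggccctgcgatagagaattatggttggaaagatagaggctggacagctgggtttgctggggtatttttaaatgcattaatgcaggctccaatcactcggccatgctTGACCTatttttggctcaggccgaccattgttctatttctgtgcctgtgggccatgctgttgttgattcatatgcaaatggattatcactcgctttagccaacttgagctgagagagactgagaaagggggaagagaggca

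In the combination 18 enzymes rose and 15 fell relative to DMSO, against 27.1% and 26.5% of all genes (53.6% in either direction). On library totals alone 25 enzymes rose and 6 fell, beside 6242 and 2916 of the 16740 genes tested. The combination and vemurafenib comparisons share the DMSO samples, so their values are set side by side without a test of their likeness. The log2 fold change of HDAC11 was 1.22 with vemurafenib and 0.88 with the combination, that of HDAC6 1.03 and 0.97, KMT5C 0.88 and 0.93, and HDAC5 0.82 and 0.67. For the genes that fell, KDM7A gave -0.64 and -0.50, KDM2B -0.63 and -0.61, HDAC2 -0.55 and -0.59, DOT1L -0.53 and -0.42, and KDM6B -0.51 and -0.62. The mitochondrial sirtuin SIRT4 passed in the combination (1.10 ± 0.291 SE, edgeR adjusted p = 0.004), at 1.71, 2.14 and 1.68 CPM against 0.580, 1.22 and 0.791 CPM with DMSO. KDM5A also passed there (0.23 ± 0.067 SE, edgeR adjusted p = 0.0068). Small falls of SIRT1 (-0.23), KMT2B (-0.21) and KMT2D (-0.30) passed in the combination too, but all were lost with library totals alone. With a sample left out, SIRT1 was lost without DMSO replicates 2 and 3 and combination replicates 1 and 2, KMT2D without DMSO replicate 3 and each combination sample, and KMT2B without DMSO replicates 1 and 3 and each combination sample.

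The combination was also compared with each single drug. Against tretinoin 19 enzymes were higher and 14 lower, beside 24.1% and 25.0% of all genes (49.1% in either direction). Without tretinoin replicate 1 these were 18 and 15. Against vemurafenib 2 enzymes were lower and none higher by edgeR, beside 2.20% and 2.27% of all genes (4.47% in either direction). At an unadjusted p under 0.05, a looser threshold than that of these shares, there were 3 in either direction, with no matching share of all genes. DESeq2 at its adjusted threshold also gave 2 lower and 0 higher, but the shares above are those of edgeR and none was taken for DESeq2. HDAC7 fell from 59.3, 62.5 and 65.7 CPM with vemurafenib to 50.1, 48.3 and 47.6 CPM with the combination, -0.36 ± 0.066 (SE, edgeR adjusted p = 0.0023), and kept the call in all 6 fits that left out a sample. HDAC9 fell too, -0.55 ± 0.124 (SE, edgeR adjusted p = 0.013), a call lost without vemurafenib replicate 1 and without combination replicate 2.

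The interaction of the drugs asks whether the effect of tretinoin differs between cells with and without vemurafenib. None of the 51 enzymes passed by edgeR or by DESeq2. Over all genes edgeR called 0.382% higher, 0.424% lower and 0.806% in either direction. At an unadjusted p under 0.05 there were 5 enzymes, a count at a looser threshold that cannot be set beside those shares. The value furthest from 0 was that of KMT2A, -0.46 ± 0.135 (SE, edgeR adjusted p = 0.13), followed by HDAC5 with 0.33 ± 0.104 (SE, edgeR adjusted p = 0.16). For HDAC9 the difference was -0.02 (95% interval -0.41 to 0.36) and for HDAC7 -0.24 (95% interval -0.43 to -0.04). For 34 of the 51 the interval lay within 0.5 of no difference, and for the other 17 the data allow a larger one.

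The ratio of the counts of 2 relatives within a library does not depend on how libraries are scaled. Ratios were formed for all 68 pairs within families after the changes above had been seen. They restate the changes of the same genes and are given as a description, with no test. In 3 pairs the mean change of the log2 ratio with vemurafenib was at least 1: HDAC5/HDAC4 with 1.57, HDAC5/HDAC7 with 1.52 and KMT5C/KMT5A with 1.14. The log2 count ratio of HDAC5 to HDAC4 was 2.29, 2.34 and 2.07 with DMSO, 1.57, 1.71 and 1.73 with tretinoin, 3.85, 3.57 and 3.50 with vemurafenib, and 3.38, 3.34 and 3.49 with the combination. The ratio was lowest with tretinoin and highest with vemurafenib, and no groups overlapped across the presence of vemurafenib.

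For KMT5C to KMT5A the log2 count ratio was -2.95, -3.09 and -3.11 with DMSO, -2.88, -2.99 and -2.94 with tretinoin, -1.93, -1.95 and -1.91 with vemurafenib, and -1.90, -1.61 and -1.85 with the combination, so that the enzyme of H4K20 trimethylation gained on the enzyme of monomethylation in all 6 samples with vemurafenib. The ratio also moved by 0.84 for KMT2E/KMT2D, 0.76 for SIRT3/SIRT1, 0.61 for KDM5B/KDM5C, 0.58 for KDM6A/KDM6B, 0.56 for EZH1/EZH2, 0.47 for KDM2A/KDM2B and 0.26 for HDAC1/HDAC2. It moved by 0.04 for HDAC7/HDAC4 and 0.02 for SIRT5/SIRT3.

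**Figure D4:**
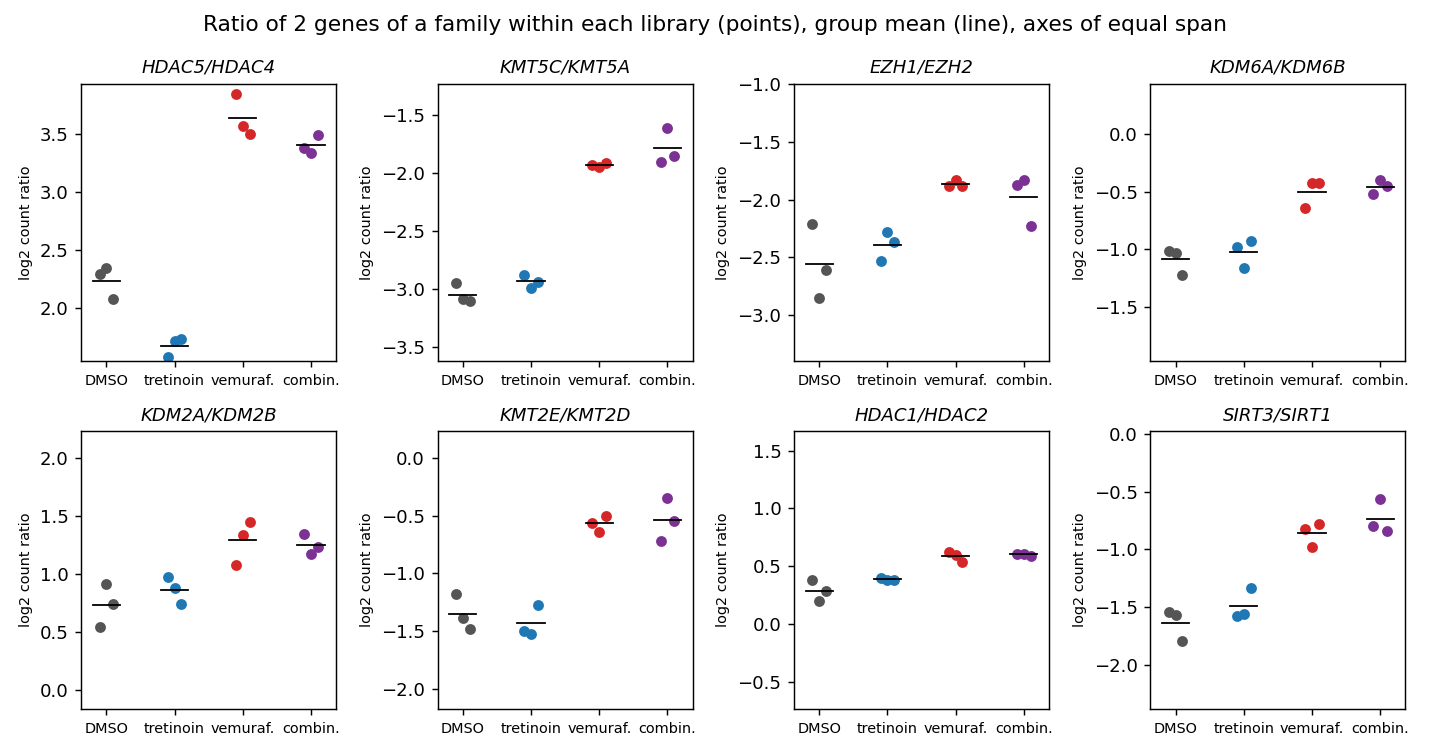
Log2 ratio of the counts of 2 relatives in each library (points) with the group mean (line), for 8 pairs on axes of equal span. In 7 panels every sample with vemurafenib lies above every sample without it, and for EZH1/EZH2 combination replicate 3 lies level with the highest DMSO sample (-2.23 and -2.21). The mean shift is 1.57 for HDAC5/HDAC4 and 0.26 for HDAC1/HDAC2.

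Other genes that write, erase or bind the same marks were taken from lists of known function, and their counts stand beside 26.4% of all genes higher and 26.3% lower with vemurafenib (13.5% and 47.4% in the highest of the 4 groups by mean CPM), so none is read as particular to its list. With vemurafenib, 4 of 12 histone acetyltransferases rose and 2 fell, among them, with log2 fold changes in parentheses, the nuclear receptor coactivator NCOA1 (0.65), KAT6B (0.63) and the cytoplasmic enzyme HAT1 (-0.57). Of 16 other lysine methyltransferases 3 rose and 5 fell, with SETDB2 at 0.74 and the heterochromatin enzyme SUV39H2 at -0.71. Of 8 partners of polycomb repressive complex 2, 5 fell and 1 rose. The complex's core subunit EED, which binds H3K27 trimethylation, had 84.4, 87.8 and 76.0 CPM with DMSO, 70.0, 74.9 and 76.3 with tretinoin, 46.9, 46.4 and 46.8 with vemurafenib and 48.9, 48.7 and 45.5 with the combination. The 6 samples with vemurafenib lay below the 6 without, a change of -0.82 ± 0.07 (SE, edgeR adjusted p = 2.9e-08) with vemurafenib, beside -0.09 for EZH2. EED was picked after its values were seen and does not stand for the complex. SUZ12 of the same list had 104.1, 111.6 and 107.7 CPM with DMSO and 102.7, 102.5 and 96.6 with vemurafenib. Of 24 partners of the HDAC and KDM1A corepressors, 8 rose and 7 fell, from GATAD2A of the NuRD complex (-0.73) to RCOR2 of CoREST (1.35). Of 8 further JmjC proteins, 3 fell, led by JMJD6 (-1.01).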

How the data were processed

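Poly(A) RNA libraries of 12 A375 samples were sequenced with paired reads of 150 bases. The authors aligned reads to GRCh38.p10 with STAR 2.5.3a (per the submitters' processing notes), counted fragments per GENCODE 27 gene with strand ignored, and deposited raw counts with no normalization for 58347 genes. Fragments over exons of overlapping genes are thus ambiguous, and groups were taken from the labels. GENCODE 29 supplied symbols and positions, matching 58039 genes, and no column was left without a sample.

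edgeR 4.0.16 (R 4.3.3) was used with filterByExpr (16740 genes kept), TMM scaling and a quasi-likelihood fit of all 12 samples with a term per group (common dispersion 0.0065). P-values were adjusted by Benjamini-Hochberg within each comparison, with a threshold of 0.05. CPM are TMM-scaled. The fit was tested on simulated data. Total counts were 13510235 to 21534377 per sample, and the median SE of a log2 fold change of the enzymes in vemurafenib against DMSO was 0.085, from 0.06 (NSD2) to 0.369 (HDAC10). Every pair of replicates differed by more than sampling noise (chi-square per degree of freedom 2.56 to 8.38, and 19.1 and 21.8 for tretinoin replicate 1 against the others).

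The genes and lists were chosen with earlier results of these data known. Values per sample are printed for genes called with tretinoin, between the combination and vemurafenib or in the interaction, the 8 largest rises and falls with vemurafenib, and the gene of each family with the highest count per kilobase. SIRT4, EED, DNMT3A, UHRF1 and WDR5 were added after their values were seen, and the remaining enzymes are given by their changes. From the other lists the leading rises and falls are named. Alternatives were DESeq2 1.42.0, its size factors, testing every gene with a count, keeping genes with 10 counts or more in each sample, fitting the compared groups alone, a replicate block and each sample left out. Library totals, the principal transcript length and the ratios were added after seeing the data.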

Additional observations from a re-analysis of the deposited data

Results flagged for a closer look

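Among these enzymes and the other chromatin genes listed, 1 gene differed in its response to tretinoin between cells with and without vemurafenib. By the interaction test DNMT3A, a de novo DNA methyltransferase, had a difference of -0.776 on the log2 scale (edgeR adjusted p = 0.026). Over all genes 0.806% passed that test, so the single call is not read as particular to these lists. The call was not checked under other settings or with a sample left out. The level of DNMT3A is given with the other enzymes of DNA methylation below.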

How the results depend on the processing

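Of the 30 enzymes called with vemurafenib, 23 passed under every alternative that could test them, 13 for most, as did 20 of 33 in the combination against DMSO, 1 of 3 with tretinoin and 1 of 2 between the combination and vemurafenib. DESeq2 size factors within edgeR changed none of these calls. DESeq2's own test lost KMT2A and EHMT2 with vemurafenib (DESeq2 adjusted p = 0.051 for each). It also lost KMT5B in the combination against DMSO (DESeq2 adjusted p = 0.077). On library totals, members lower numbered 1 with tretinoin (from 2), 6 in the combination against DMSO (from 15) and 8 against tretinoin (from 14), NSD2 in the combination turned from -0.15 to 0.011, and calls of HDAC1, KDM1A and KMT5A (both vemurafenib comparisons with DMSO), HDAC9, KDM7A, KMT2B, KMT2D and SIRT1 (combination) and HDAC9 (tretinoin) were lost. The share of higher calls over all genes went from 61.3% to 81.3% with tretinoin, from 50.5% to 68.2% in the combination (median of all genes 0.03 to 0.19), from 49% to 60.7% against tretinoin and from 47.4% to 21.4% for the interaction. On library totals, lower calls over all 16740 genes numbered 174 with tretinoin, 2916 in the combination against DMSO and 3271 against tretinoin. That scaling moves every gene of a library alike.

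No pairing by replicate number was seen: same-numbered samples had a mean correlation of deviations from the group mean of -0.031 (18 pairs, -0.143 to 0.087). The mean of 0.015 over 36 other pairs follows largely from taking deviations from group means and is no separate reference. With a replicate block, members higher with tretinoin numbered 0 (from 1), with the other counts within 1.5 times, such as 19 higher and 10 lower with vemurafenib. Fitting only the groups compared gave 0 higher and 1 lower with tretinoin, and the interaction cannot be fitted so. The cause of these losses was not tested.

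With each sample left out, members higher and lower ranged over 0 to 2 and 1 to 2 with tretinoin, 17 to 19 and 9 to 11 with vemurafenib, 15 to 18 and 11 to 15 in the combination against DMSO, 17 to 18 and 12 to 15 against tretinoin, and 0 to 0 and 1 to 2 against vemurafenib, with 0 in the interaction. In the combination against DMSO, the rise of EZH1 was lost without DMSO replicate 2 or combination replicate 2, that of KMT2C without DMSO replicate 2 or combination replicate 3, and that of KMT5B without DMSO replicate 2 or 3 or combination replicate 2. Counts limit HDAC10, SIRT4, HDAC11 and KDM4D most, whose intervals with tretinoin reach beyond 0.5.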

Other observations

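The enzymes of DNA methylation, a mark that works together with H3K9 and H3K27 methylation, also moved in opposite directions with vemurafenib, with 3 of 7 higher and 3 lower, beside 26.4% and 26.3% of all genes. DNMT3A, a de novo methyltransferase, had 11.7, 8.51 and 9.13 CPM with DMSO, 10.7, 11.9 and 10.3 with tretinoin, 22.2, 20.9 and 20.4 with vemurafenib and 14.5, 13.4 and 13.8 with the combination. It rose with vemurafenib by 1.11 ± 0.111 (SE, edgeR adjusted p = 2.2e-07), was lower in the combination than with vemurafenib, -0.61 ± 0.105 (SE, edgeR adjusted p = 0.0014), and passed the test of the interaction of the drugs (-0.78 ± 0.158 SE, edgeR adjusted p = 0.026). DNMT3B, the other de novo enzyme, rose by 0.95 ± 0.134 (SE, edgeR adjusted p = 1.3e-05). UHRF1, which guides maintenance methylation to replicating DNA, had 306, 262 and 315 CPM with DMSO, 243, 307 and 294 with tretinoin, 119, 123 and 116 with vemurafenib and 124, 116 and 107 with the combination. With vemurafenib it changed by -1.30 ± 0.091 (SE, edgeR adjusted p = 2.7e-09), and the maintenance enzyme DNMT1 by -0.40 ± 0.068 (SE, edgeR adjusted p = 9.9e-05), on the log2 scale. The proliferation markers fell in the same samples, and their part in these values was not tested.

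Of 8 arginine methyltransferases, 5 fell with vemurafenib and 1 rose. On the log2 scale PRMT6 gave -0.51, PRMT5 -0.48 and PRMT2 0.46. These counts and that of the COMPASS partners below stand beside 26.3% of all genes lower and 26.4% higher. In the highest of the 4 groups by mean CPM the shares were 47.4% and 13.5%, so neither count is read as particular to its list. Of 11 partners of the KMT2 enzymes in COMPASS complexes, 3 fell, among them the shared core subunit WDR5 (-0.59 ± 0.059 SE, edgeR adjusted p = 2.2e-07). WDR5 had 158, 166 and 163 CPM with DMSO, 148, 149 and 155 with tretinoin, 106, 111 and 106 with vemurafenib and 100.1, 102 and 106 with the combination, so that its vemurafenib and combination samples lay below all others.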
